A study of Homo sapiens with 6 samples.

Results

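The 52 genes described here encode proteins that carry a cell through mitosis: the kinases and cyclins that start it, the kinetochore and spindle, the checkpoint that delays anaphase, the kinesin motors and the factors that divide the cell. They were taken by gene symbol from a list of such genes by role. That list and the comparison lists below were chosen with earlier results of these data known. All 52 of 52 were found among the 15024 genes of the deposited table and passed the filter on low values. RNA was sequenced from MDA-MB-231 cells, a widely used human line of triple-negative breast cancer. All 6 samples are labelled null for MLL3, a histone H3 lysine methyltransferase whose gene is KMT2C. All 6 had also received 10 µM forskolin, which stimulates adenylyl cyclases and thereby protein kinase A, over 14 days. Cells positive for the hyaluronan receptor CD44 were sorted on CD104, the integrin beta-4 protein, into CD104high cells (n = 3), which the study calls a hybrid epithelial-mesenchymal state, and CD104-negative or low cells (n = 3), which it calls mesenchymal and which are written CD104low below. The labels number 3 biological replicates in each population without naming cultures, days or clones, so p-values refer to the spread among these libraries, which may be technical. Wild-type cells were not analysed here, and the effect of MLL3 loss or of forskolin itself cannot be read from a comparison in which both populations carry them.

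Entry into mitosis is driven by cyclin-dependent kinase 1 bound to B-type cyclins, which the CDC25 phosphatases switch on and which acts together with the Polo and Aurora kinases. Kinetochores, built on centromeric chromatin, then bind spindle microtubules through the NDC80 complex, and unattached kinetochores hold back anaphase through MAD2 and the BUB proteins until CDC20 activates the anaphase-promoting complex. Most of these genes are transcribed in G2 and mitosis. In quiescent or early G1 cells the DREAM complex represses them, and later the MuvB core with B-MYB and FOXM1 activates them, at a promoter element called the cell cycle genes homology region, often with CCAAT boxes, bound by NF-Y, just upstream of it. In breast cancer, expression of these genes is widely read as a measure of how many cells are dividing. In bulk RNA, fewer mitotic cells and less RNA per mitotic cell cannot be told apart.

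The promoters show what the genes share outside the RNA values. RefSeq start sites with 250 bases before and 50 after the start were at hand for 43 of the 52 genes (build GRCh38.p14, 54 windows, 7 genes with more than 1 window). The homology region, searched as TTTGAA on either strand (TTCAAA where it lies on the other strand), was found in 30 of 43 genes (69.8%), and in 18.2% of the 27305 genes with such a window. Within 60 bases upstream of the start it was found in 19 of 43 genes (44.2%) and in 3.76% of all genes. Its variant TTCGAA, which reads the same on both strands, was found in 4 of 43 genes (9.30%) and in 1.82% of all genes. A CCAAT box, CCAAT or ATTGG, was found in 35 of 43 genes (81.4%) and in 39.7% of all genes. The motifs were searched separately, so matches may share bases. A match is a description of these letters and says nothing of binding in these cells.

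The homology region occurred in genes of each outcome described below. It was found in 3 of 3 genes that were higher in CD104high cells, in 16 of 25 that were lower (64.0%), and in 11 of 15 that did not pass the test (73.3%). Within 60 bases upstream of the start it was found in 1 of 3 higher genes, 10 of 25 lower genes (40.0%) and 8 of 15 that did not pass (53.3%). The match of CENPF, 1 of the higher genes, lies 40 bases after the start. The 200 bases upstream of the start are printed for 8 genes, chosen to set genes of each outcome side by side, with homology regions of either strand in capitals. CDC20, PLK1, CCNB2, BUB1B and CENPE were lower in CD104high cells, MKI67 did not pass the test, and INCENP and TOP2A were higher.
CDC20, chr1:43358781-43358980, plus strand: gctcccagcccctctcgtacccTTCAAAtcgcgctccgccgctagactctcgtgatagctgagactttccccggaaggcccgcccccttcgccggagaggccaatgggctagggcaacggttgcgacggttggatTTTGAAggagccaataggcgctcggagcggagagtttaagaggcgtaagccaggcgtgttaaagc
PLK1, chr16:23678689-23678888, plus strand: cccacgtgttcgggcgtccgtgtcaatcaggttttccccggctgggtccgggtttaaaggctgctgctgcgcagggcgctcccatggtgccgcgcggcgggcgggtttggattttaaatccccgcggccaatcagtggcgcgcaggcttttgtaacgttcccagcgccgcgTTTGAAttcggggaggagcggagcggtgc
CCNB2, chr15:59104946-59105145, plus strand: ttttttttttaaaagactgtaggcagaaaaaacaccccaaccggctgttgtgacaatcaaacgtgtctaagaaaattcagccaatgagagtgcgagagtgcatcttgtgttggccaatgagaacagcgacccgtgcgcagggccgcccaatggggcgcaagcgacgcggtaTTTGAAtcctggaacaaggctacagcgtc
BUB1B, chr15:40160869-40161068, plus strand: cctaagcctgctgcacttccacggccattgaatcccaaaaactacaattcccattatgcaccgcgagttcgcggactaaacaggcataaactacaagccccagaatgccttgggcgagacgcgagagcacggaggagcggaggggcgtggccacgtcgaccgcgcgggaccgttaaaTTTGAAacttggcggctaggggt
CENPE, chr4:103198344-103198543, minus strand: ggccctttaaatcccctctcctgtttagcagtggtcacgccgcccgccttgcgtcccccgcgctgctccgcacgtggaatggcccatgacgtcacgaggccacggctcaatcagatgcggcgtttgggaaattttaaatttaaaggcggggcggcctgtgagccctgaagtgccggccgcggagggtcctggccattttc
MKI67, chr10:128126424-128126623, minus strand: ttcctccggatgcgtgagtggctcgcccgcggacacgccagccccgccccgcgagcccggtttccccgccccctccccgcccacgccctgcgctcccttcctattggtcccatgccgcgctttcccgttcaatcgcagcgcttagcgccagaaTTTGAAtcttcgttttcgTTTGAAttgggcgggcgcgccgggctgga
INCENP, chr11:62123811-62124010, plus strand: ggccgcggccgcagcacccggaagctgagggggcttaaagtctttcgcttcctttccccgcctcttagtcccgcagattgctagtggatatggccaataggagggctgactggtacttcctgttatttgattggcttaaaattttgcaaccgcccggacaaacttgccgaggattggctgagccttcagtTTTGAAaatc
TOP2A, chr17:40417897-40418096, minus strand: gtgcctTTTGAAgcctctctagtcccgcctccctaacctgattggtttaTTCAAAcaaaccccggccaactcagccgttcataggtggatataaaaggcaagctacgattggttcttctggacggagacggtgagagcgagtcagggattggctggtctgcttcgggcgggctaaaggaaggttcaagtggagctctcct
Counted in bases from the start, the homology region begins at -29 in PLK1 and CCNB2, at -23 in BUB1B and at -10 in INCENP. CDC20 has matches at -178 and -65, TOP2A at -194 and -151, and MKI67 at -47 and -29, while the window of CENPE holds no match in these letters. PLK1, which was lower in CD104high cells, and MKI67, which did not pass the test, both have a match at -29. Whether matches go with the outcome was not tested.

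**Figure D1:**
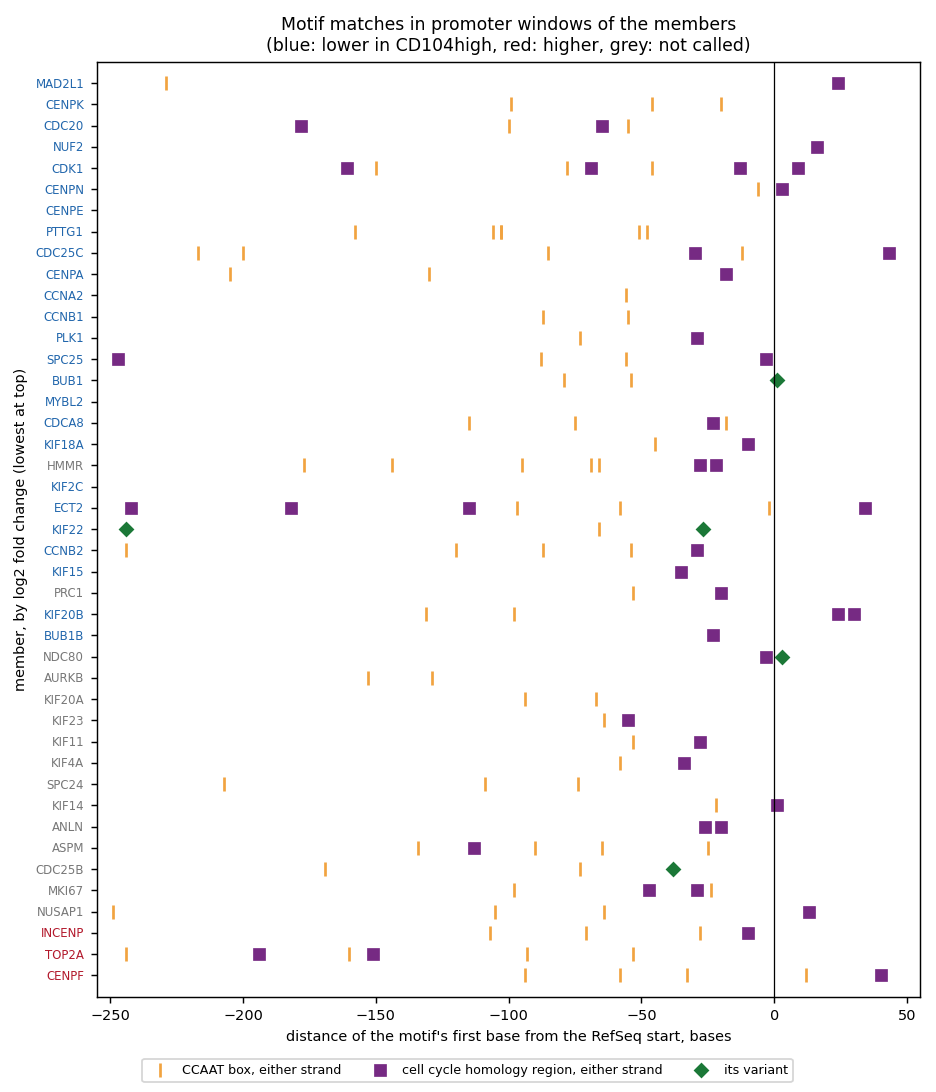
Matches to the homology region (squares), its variant (diamonds) and the CCAAT box (bars) in the promoter windows of 43 genes, by distance in bases from the RefSeq start (x axis, start at 0), genes ordered from the lowest log2 fold change at the top, with all windows of a gene on 1 line. Homology regions crowd within 60 bases upstream of the start in 19 of 43 genes, and they occur in lower (blue), higher (red) and not called (grey) genes.

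Each library held between 49791498 and 60069719 reads on the listed genes, recovered from the deposited scaled read counts. Values per library below are those scaled read counts, in the order of replicates 1, 2 and 3. ITGB4, which encodes the sorted protein, had 15445, 14508 and 19435 in CD104high libraries, against 1492, 2273 and 1333 in CD104low libraries, so the labels of all 6 libraries fit the sort. KMT2C, the gene labelled null, still had 3561 to 3952 in CD104high and 2095 to 2814 in CD104low libraries (log2 fold change 0.62, limma adjusted p = 0.00270), and gene-level reads do not tell which exons remain. VIM, the vimentin gene that this line expresses, was at 19871 to 23329 in CD104high and at 19896 to 20647 in CD104low libraries. CD44 was at 22069.5 to 28210 and 23282 to 25669, and EGFR at 9960 to 12677 and 8805 to 10407 (log2 fold change 0.30, limma adjusted p = 0.0430). ERBB2, listed beforehand as low or absent in this line, was at 7747 to 8564 in CD104high and 6219 to 7012 in CD104low libraries. It was called higher (0.33, limma adjusted p = 0.00621), and the median level over all tested genes was 1320. With the trends of length and GC content removed, as described below, neither ERBB2 (0.15, limma adjusted p = 0.0609) nor EGFR (0.076, limma adjusted p = 0.623) passed. The hormone receptor genes ESR1 and PGR were also looked for and were not among the tested genes. Of 8 markers of blood and endothelial cells, 4 passed the filter and summed to 2370 to 4239 in CD104high and 3766 to 5525 in CD104low libraries, most of it LCP1. PTPRC, the defining leukocyte marker, and CDH5, the endothelial cadherin, were looked for and were not among the tested genes either. By log2 fold change, LAPTM5 (1.15) and CD14 (0.91) were higher, LCP1 (-0.90) was lower and KDR (0.26, adjusted p = 0.510) did not pass the test, and the part of these markers in the results below was not tested.

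Most of the mitosis genes were lower in CD104high cells, by small amounts. On log2(value + 1) with limma's moderated test and an adjusted p under 0.05, 30 of 52 (57.7%) fell in CD104high cells, where 21.6% of the 14420 tested genes did, and 3 of 52 (5.77%) rose, where 21.8% of tested genes did. The other 19 did not pass. In either direction 43.4% of tested genes passed. The median log2 fold change was -0.28 over the 52 genes and 0.019 over all tested genes. Below 0 were 44 of the 52 and 6968 of the 14420 tested genes. No gene of the group reached a log2 fold change of 1 in size, and 6 were at least 1.5-fold lower. The median of the 30 that fell was -0.36, set beside a median size of 0.49 for all genes that passed. Libraries of the populations did not overlap in 37 of 52 genes (71.2%), 32 lower and 5 higher, where 54.3% of tested genes did not overlap, 26.9% lower and 27.4% higher.

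**Figure D2:**
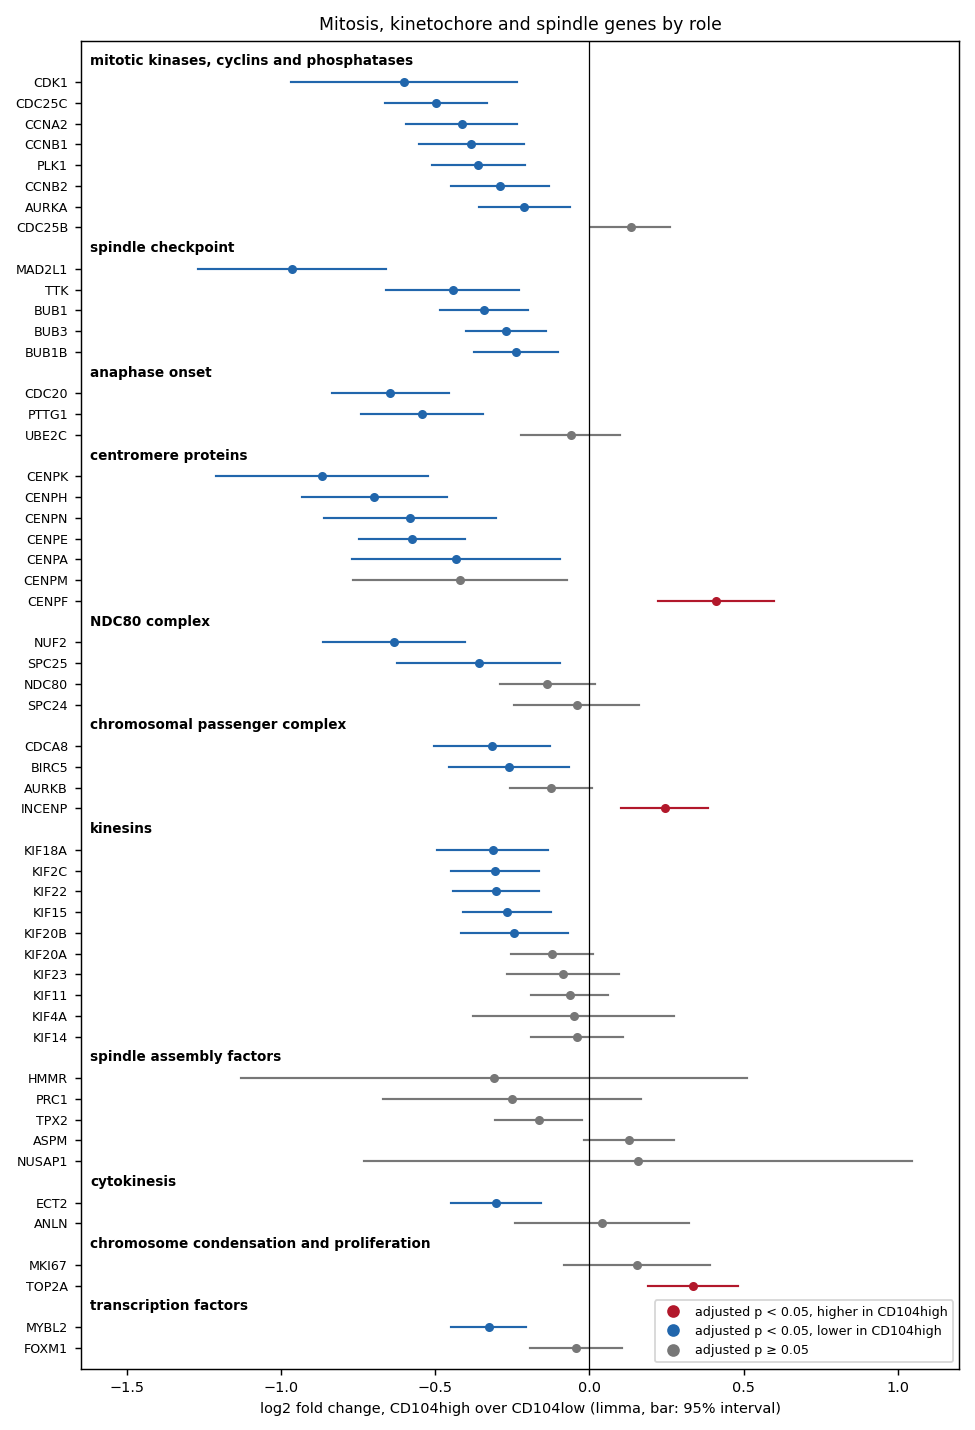
Log2 fold change of CD104high over CD104low for the 52 genes by role (points: limma estimate, n = 3 libraries per population; bars: 95% interval), coloured by the call at an adjusted p of 0.05. All 5 checkpoint genes lie left of 0, no spindle assembly factor is called, and CENPF, TOP2A and INCENP are the 3 genes called higher.

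The kinases, cyclins and phosphatases that start mitosis were lower in CD104high cells in 7 of 8 cases. The share lower among all tested genes was 21.6%. CDK1 (ENSG00000170312.16; GRCh38 chromosome 10, 60778331 to 60794852, plus strand), the kinase at the centre of mitotic entry, had 8281, 8241 and 10262 in CD104high libraries, against 15932, 10224 and 15026 in CD104low libraries. Its fold change of -0.60 was among the larger ones (SE 0.16, limma adjusted p = 0.0166), but the populations overlapped, since CD104high replicate 3 lay slightly above CD104low replicate 2. For CDK1 the adjusted p was 0.0614, 0.0503, 0.0722 and 0.0552 without CD104high replicates 1 or 2 or CD104low replicates 1 or 3. CCNB1, the main mitotic cyclin, had 17279, 15538 and 17202 in CD104high libraries, against 22427, 19938 and 22892 in CD104low libraries, a fall of 1.3-fold (log2 fold change -0.38, SE 0.074, limma adjusted p = 0.00400). Every CD104high library was below every CD104low library for CCNB1, and the same held for CCNB2, its companion B cyclin, with 5490.1, 5155 and 5639 in CD104high libraries, against 6658, 6199 and 7055 in CD104low libraries (log2 fold change -0.29, SE 0.070, limma adjusted p = 0.0104).

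CCNA2, the cyclin of S phase and early mitosis, was very even in CD104high cells and had 12542, 12336 and 12492 in CD104high libraries, against 16526, 14941 and 18516 in CD104low libraries. It was 1.33-fold lower (log2 fold change -0.41, SE 0.079, limma adjusted p = 0.00373). CDC25C, a phosphatase that activates CDK1, had 1670.5, 1727 and 1783 in CD104high libraries, against 2442, 2306 and 2569 in CD104low libraries and was 1.41-fold lower without overlap (log2 fold change -0.50, SE 0.073, limma adjusted p = 0.00116). PLK1, the Polo kinase of centrosome maturation and spindle assembly, had 9778, 8986 and 8541 in CD104high libraries, against 11619.6, 11395 and 11984 in CD104low libraries and was 1.28-fold lower (log2 fold change -0.36, SE 0.066, limma adjusted p = 0.00306). The fall of AURKA, the centrosomal Aurora kinase, was the smallest of the group at 1.16-fold, with 11783, 10901 and 11343 in CD104high libraries, against 12765, 12624 and 14012 in CD104low libraries. Its populations did not overlap (log2 fold change -0.21, SE 0.064, limma adjusted p = 0.0278), yet its adjusted p was above 0.05 in 8 of the 18 other settings tried, 0.0507, 0.0946, 0.0593 and 0.107 among them without CD104high replicates 1 or 2 or CD104low replicates 1 or 3. CDC25B, the phosphatase that starts CDK1 activation at centrosomes, was not lower and did not pass the test, at 12719 ± 234 in CD104high libraries and 11600.4 ± 398 in CD104low libraries (mean ± SD, n = 3 per population; log2 fold change 0.13, SE 0.056, limma adjusted p = 0.0836). Under quantile normalization CDC25B was called higher (0.17, adjusted p = 0.0438).

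The spindle checkpoint was the group in which every gene fell, 5 of 5, without overlap between populations in any of them. Among all tested genes 21.6% fell, and 26.9% were lower without overlap. MAD2L1 (ENSG00000164109.14; GRCh38 chromosome 4, 120055608 to 120067074, minus strand) encodes MAD2, which binds and blocks CDC20 while kinetochores are unattached, and its difference was the largest of all 52 genes. It had 8711, 8884 and 9338 in CD104high libraries, against 20843, 13736 and 18711 in CD104low libraries. The CD104high libraries were tightly grouped while the CD104low libraries spread widely, and the fall was 1.95-fold (log2 fold change -0.96, SE 0.13, limma adjusted p = 0.000960, 95% interval -1.27 to -0.66). TTK, the kinase MPS1 that starts checkpoint signalling, had 3175, 3203 and 3654 in CD104high libraries, against 4647, 4028 and 4993 in CD104low libraries and was 1.36-fold lower (log2 fold change -0.44, SE 0.095, limma adjusted p = 0.00599).

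BUB1, a kinetochore kinase that recruits other checkpoint proteins, had 12521, 11839 and 12117 in CD104high libraries, against 15852, 14426 and 16028 in CD104low libraries. BUB3, the partner that brings BUB1 and BUBR1 to kinetochores, had 15021, 14008 and 14478 in CD104high libraries, against 17781, 16922 and 17735 in CD104low libraries. BUB1B, which encodes BUBR1, a part of the inhibitor of the anaphase-promoting complex, had 4646, 4417 and 4533 in CD104high libraries, against 5419, 5120.0 and 5506 in CD104low libraries. These 3 genes had falls of 1.27-fold for BUB1 (limma adjusted p = 0.00305), 1.21-fold for BUB3 (adjusted p = 0.00575) and 1.18-fold for BUB1B (adjusted p = 0.0127), all smaller than that of MAD2L1. For BUB1B the adjusted p was 0.0515 without CD104low replicate 1 and 0.0528 without CD104low replicate 3. A readthrough gene, BUB1B-PAK6, overlaps BUB1B on the same strand, so BUB1B reads may be divided with it.

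Among genes of anaphase onset, CDC20 and PTTG1 fell and UBE2C did not pass the test. CDC20 (ENSG00000117399.14; GRCh38 chromosome 1, 43358955 to 43363203, plus strand), the activator of the anaphase-promoting complex and the target of MAD2, had 13393, 11776 and 12985 in CD104high libraries, against 21241, 17821 and 20715 in CD104low libraries. No CD104high library reached the lowest CD104low one, and the fall was 1.56-fold (log2 fold change -0.65, SE 0.083, limma adjusted p = 0.000716). PTTG1, which encodes securin, the inhibitor of separase, had 7230.2, 6634 and 7634 in CD104high libraries, against 11038, 9275 and 11093 in CD104low libraries and was 1.46-fold lower (log2 fold change -0.54, SE 0.087, limma adjusted p = 0.00171). Securin has near-identical intronless copies in the genome, so its share of reads is uncertain. UBE2C, the ubiquitin-conjugating enzyme that starts chains on the substrates of the complex, overlapped between populations, with 10129, 9681 and 10422 in CD104high libraries, against 10739.7, 9640.4 and 11194 in CD104low libraries (log2 fold change -0.060, SE 0.071, limma adjusted p = 0.519, 95% interval -0.22 to 0.10). Per kilobase of longest transcript UBE2C had the highest level of all 52 genes, 11026 in CD104high and 11515 in CD104low, against a median of 2314 over the 52.

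**Figure D3:**
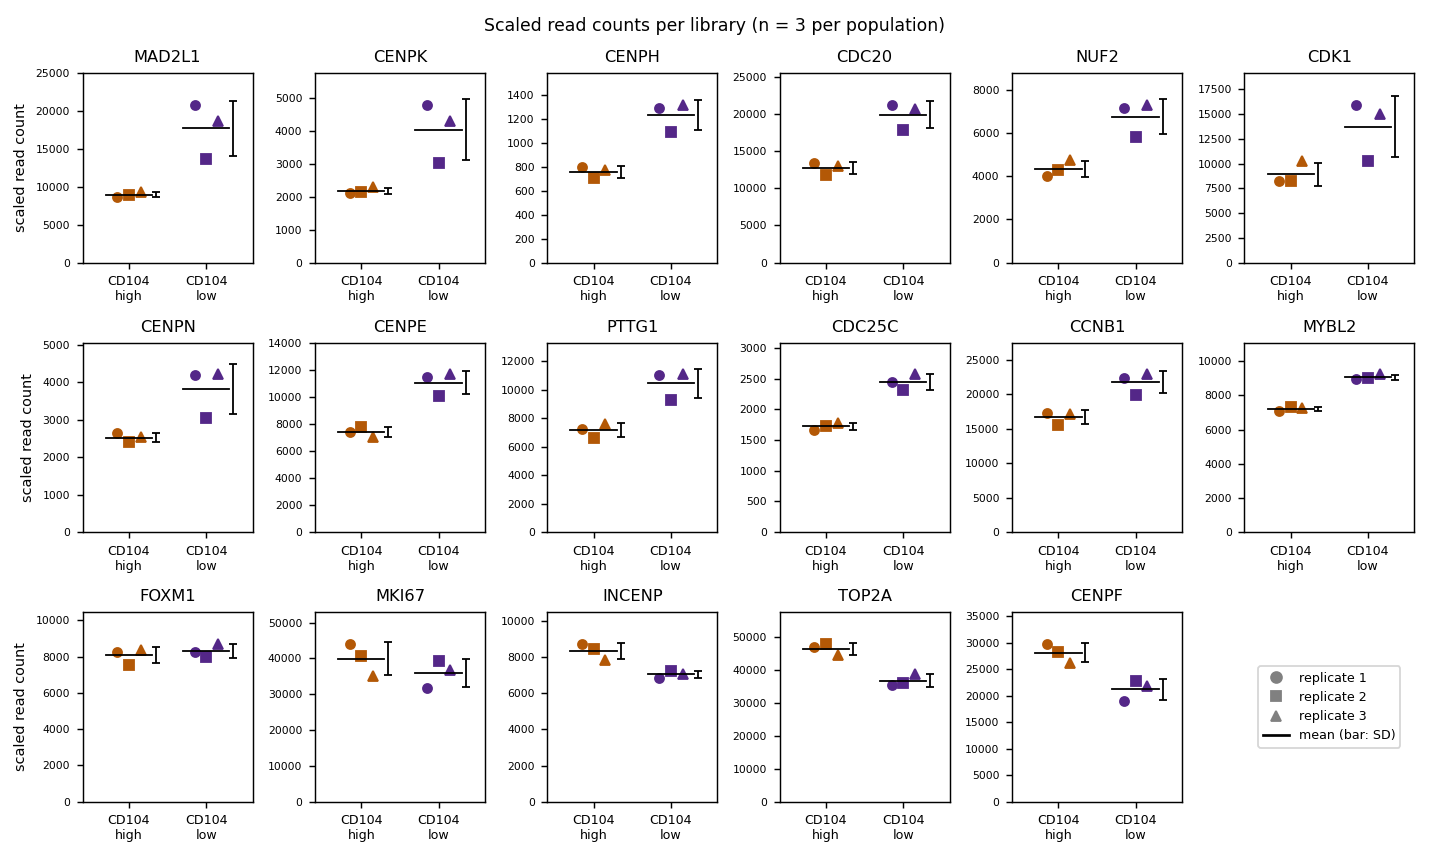
Scaled read counts (y axis, from 0) of 17 genes in each library, CD104high left and CD104low right, n = 3 per population (symbols: replicates; line: mean; bar: SD). In MAD2L1, CENPK, CDK1 and CENPN the CD104low libraries spread more widely than the CD104high ones, with CD104low replicate 2 the lowest, and in INCENP, TOP2A and CENPF every CD104high library is above every CD104low one.

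The centromere proteins held both the larger falls and the largest rise. CENPK (ENSG00000123219.13; GRCh38 chromosome 5, 65517766 to 65563171, minus strand) and CENPH belong to the constitutive centromere network that links centromeric nucleosomes to the outer kinetochore. CENPK had 2114, 2134 and 2285 in CD104high libraries, against 4801, 3024 and 4314 in CD104low libraries, a fall of 1.82-fold (log2 fold change -0.87, SE 0.15, limma adjusted p = 0.00243). CENPH had 799, 703 and 774 in CD104high libraries, against 1290.3, 1091 and 1318 in CD104low libraries, a fall of 1.62-fold (log2 fold change -0.70, SE 0.10, limma adjusted p = 0.00127). In both genes the populations were separate. CENPN, which reads the CENP-A nucleosome for the same network, had 2643, 2399.6 and 2528 in CD104high libraries, against 4193, 3046 and 4212 in CD104low libraries and was 1.5-fold lower (log2 fold change -0.58, SE 0.12, limma adjusted p = 0.00576).

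CENPA, the histone H3 variant that marks centromeres, had 1315, 1311 and 1964 in CD104high libraries, against 2077, 1937 and 2065 in CD104low libraries. The value of CD104high replicate 3 lay above the lowest CD104low library, so the populations overlapped (log2 fold change -0.43, SE 0.15, limma adjusted p = 0.0430). For CENPA the adjusted p lay above 0.05 without any library but CD104high replicate 3, between 0.0567 (without CD104low replicate 2) and 0.150 (without CD104high replicate 1). SLC35F6 overlaps CENPA on the same strand. CENPM, a small subunit of the network, was lower in CD104high on average but just missed the threshold, with 1785, 1458 and 1701 in CD104high libraries, against 2181, 1766 and 2750.3 in CD104low libraries (log2 fold change -0.42, SE 0.15, limma adjusted p = 0.0530). CENPM passed in the authors' deposited table, with an adjusted p of 0.0175, and in limma without CD104low replicate 2 (adjusted p = 0.00744).

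CENPE and CENPF, very large proteins of the outer kinetochore, went in opposite directions. CENPE (ENSG00000138778.13; GRCh38 chromosome 4, 103105806 to 103198409, minus strand), a kinesin that moves chromosomes to the spindle equator, had 7453, 7812 and 7041 in CD104high libraries, against 11488, 10089 and 11705 in CD104low libraries. Its fall was 1.49-fold (log2 fold change -0.58, SE 0.075, limma adjusted p = 0.000739). CENPF (ENSG00000117724.13; GRCh38 chromosome 1, 214603195 to 214664588, plus strand), which binds microtubules and dynein regulators, had 29757, 28238 and 26236 in CD104high libraries, against 18958, 22772 and 21788 in CD104low libraries. It rose 1.33-fold (log2 fold change 0.41, SE 0.083, limma adjusted p = 0.00474), the largest rise of the 52. Neither gene overlapped between populations.

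In the NDC80 complex, the 4-subunit rod that grips microtubules, 2 of the 4 subunits passed the test, both lower. The share lower among all tested genes was 21.6%. NUF2 (ENSG00000143228.13; GRCh38 chromosome 1, 163266576 to 163355764, plus strand) had 4016, 4279 and 4735 in CD104high libraries, against 7163, 5801 and 7298 in CD104low libraries, a fall of 1.55-fold without overlap (log2 fold change -0.63, SE 0.10, limma adjusted p = 0.00172). NDC80 itself, with which NUF2 forms a dimer, had 4391, 4206 and 4677 in CD104high libraries, against 4884, 4624 and 5078 in CD104low libraries and did not pass (log2 fold change -0.14, SE 0.068, limma adjusted p = 0.136, 95% interval -0.29 to 0.018). SPC25 was lower, at 1955 ± 158 in CD104high libraries and 2523 ± 374 in CD104low libraries (mean ± SD, n = 3 per population; log2 fold change -0.36, SE 0.12, limma adjusted p = 0.0342), with CD104high replicate 3 at 2105 just under CD104low replicate 2 at 2111. For SPC25 the adjusted p was 0.0836, 0.105, 0.116 and 0.115 without CD104high replicates 1 or 2 or CD104low replicates 1 or 3. Its dimer partner SPC24 overlapped, at 2592 ± 93.1 in CD104high libraries and 2677 ± 285 in CD104low libraries (mean ± SD, n = 3 per population; log2 fold change -0.041, SE 0.089, limma adjusted p = 0.734). With the trends with length and GC content removed, SPC25 was at -0.051 (adjusted p = 0.672) and SPC24 at -0.046 (adjusted p = 0.681), so their log2 fold changes were then almost equal.

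The chromosomal passenger complex, which corrects faulty attachments and later directs cytokinesis, was split. CDCA8, which encodes borealin, had 5217, 4636 and 5183 in CD104high libraries, against 6422, 5635 and 6689 in CD104low libraries and fell 1.25-fold (log2 fold change -0.32, SE 0.083, limma adjusted p = 0.0147). BIRC5, which encodes survivin, had 9293, 8832 and 9887 in CD104high libraries, against 11816, 9891 and 11938 in CD104low libraries and fell 1.2-fold (log2 fold change -0.26, SE 0.085, limma adjusted p = 0.0356). For BIRC5 the highest CD104high library, 9887, was only just below the lowest CD104low library, 9891. Its adjusted p was 0.0965, 0.110, 0.130 and 0.119 without CD104high replicates 1 or 2 or CD104low replicates 1 or 3, and that of CDCA8 was 0.0524, 0.0618 and 0.0565 without CD104high replicate 2 or CD104low replicates 1 or 3. AURKB, the kinase of the complex, was lower in each CD104high library without passing the test, at 5588 ± 80.2 in CD104high libraries and 6100.0 ± 244 in CD104low libraries (mean ± SD, n = 3 per population; log2 fold change -0.13, SE 0.059, limma adjusted p = 0.113).

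INCENP (ENSG00000149503.13; GRCh38 chromosome 11, 62123973 to 62153163, plus strand), the scaffold that holds the kinase and its partners, rose where CDCA8 and BIRC5 fell. It had 8738, 8473 and 7869.8 in CD104high libraries, against 6838, 7233 and 7093 in CD104low libraries. The populations did not overlap and the rise was 1.18-fold (log2 fold change 0.24, SE 0.063, limma adjusted p = 0.0136). With the trends of length and GC content removed, as described below, it was 0.099 (adjusted p = 0.191). Without CD104high replicate 1 or CD104low replicate 1 the adjusted p of INCENP was 0.0639 and 0.0586.

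Of the 10 kinesins, all 10 had a log2 fold change below 0 and 5 passed the test. Among the 14420 tested genes 6968 were below 0 and 21.6% were called lower. KIF18A, which dampens chromosome movements at the plus ends of kinetochore fibres, had 3256, 3195 and 3465 in CD104high libraries, against 4425, 3725 and 4198 in CD104low libraries (log2 fold change -0.31, SE 0.079, limma adjusted p = 0.0127). KIF2C, the depolymerase MCAK that helps correct attachments, had 7832, 7287 and 7814 in CD104high libraries, against 9512, 8980.2 and 9884 in CD104low libraries (log2 fold change -0.31, SE 0.063, limma adjusted p = 0.00509). KIF22, a chromokinesin that pushes chromosome arms, had 4951, 4567 and 4826 in CD104high libraries, against 5863, 5732 and 6099 in CD104low libraries (log2 fold change -0.30, SE 0.061, limma adjusted p = 0.00478). In each of these the populations were separate, and the falls were all near 1.24-fold, at 1.24-fold for KIF18A, 1.24-fold for KIF2C and 1.23-fold for KIF22. For KIF18A the adjusted p was 0.0576 without CD104low replicate 1.

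KIF15, a plus-end motor that can hold spindle poles apart, was tight within populations and had 2989, 3184 and 2920.0 in CD104high libraries, against 3674, 3638 and 3628 in CD104low libraries (log2 fold change -0.27, SE 0.063, limma adjusted p = 0.00937). TMEM42 overlaps KIF15 on the same strand. KIF20B, a motor of late cytokinesis, had 7189, 7226 and 7741 in CD104high libraries, against 9364, 7910.5 and 9003 in CD104low libraries (log2 fold change -0.24, SE 0.076, limma adjusted p = 0.0299). Without CD104high replicates 1 or 2 or CD104low replicates 1 or 3 its adjusted p was 0.101, 0.0840, 0.116 and 0.0928. The other 5 kinesins differed by little. KIF11, the motor Eg5 that separates spindle poles, had 11365, 11083 and 11193 in CD104high libraries, against 11629, 11380.4 and 12171 in CD104low libraries, lower in each CD104high library but by 1.05-fold only (log2 fold change -0.064, SE 0.055, limma adjusted p = 0.379). KIF20A, needed for cytokinesis, was at 10889 ± 393 in CD104high libraries and 11855 ± 416 in CD104low libraries (mean ± SD, n = 3 per population), also without overlap and without passing (log2 fold change -0.12, SE 0.059, limma adjusted p = 0.122). The populations overlapped for KIF23, the centralspindlin motor (log2 fold change -0.086, adjusted p = 0.415), KIF4A, a chromokinesin (-0.051, adjusted p = 0.798), and KIF14, a midbody kinesin (-0.039, adjusted p = 0.663). KIF14, with a longest transcript of 7274 nucleotides, was called lower with the length trend removed (-0.19, adjusted p = 0.0421) and not with GC content removed as well (-0.0016, adjusted p = 0.986).

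No spindle assembly factor passed the test, 0 of 5 in limma, where 43.4% of all tested genes passed. At an unadjusted p under 0.05 TPX2 alone did, and the replicate block, edgeR, DESeq2 and the authors' deposited table called TPX2 lower, as did TMM scaling and the length and GC corrections. TPX2, which activates Aurora A on the spindle, had 23981, 22114 and 22179 in CD104high libraries, against 25378, 24559 and 26564 in CD104low libraries, separate populations with a small difference (log2 fold change -0.16, SE 0.062, limma adjusted p = 0.0593). ASPM, which focuses spindle poles, was almost equal in the CD104high libraries and had 11938, 11994 and 11984 in CD104high libraries, against 10149, 11114 and 11628 in CD104low libraries (log2 fold change 0.13, SE 0.064, limma adjusted p = 0.136). Its CD104high libraries were all above the CD104low ones.

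The remaining factors had far lower levels than the rest of the group. NUSAP1, which bundles microtubules near chromosomes, had 26.5, 41.5 and 32.4 in CD104high libraries, against 18.1, 28.3 and 49.4 in CD104low libraries. PRC1, the cross-linker of the central spindle, had 138, 111 and 103 in CD104high libraries, against 143, 153 and 124 in CD104low libraries, and HMMR, which anchors TPX2 at spindle poles, had 215, 120.0 and 354 in CD104high libraries, against 278, 193 and 326 in CD104low libraries. Per kilobase of longest transcript, the mean over all 6 libraries was 13.6 for NUSAP1, 31.5 for PRC1 and 79.8 for HMMR. The median over the 52 genes was 2314, and the next lowest level was 689.5, that of KIF15. NUSAP1 and PRC1 each overlap a longer protein-coding gene on the same strand in GENCODE 29 that was not analysed here, so their share of reads is uncertain. HMMR has no such overlap. The 95% intervals of the log2 fold change (-0.73 to 1.05 for NUSAP1, -0.67 to 0.17 for PRC1 and -1.13 to 0.51 for HMMR) are wide. Across the 52 genes, 13 overlap an opposite-strand gene of the table, and the strand setting of the counting was not given in the sources used here.

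Of the genes of cytokinesis, ECT2, which activates RhoA at the division plane, had 11694, 11317 and 11966 in CD104high libraries, against 14349, 13551 and 15306 in CD104low libraries and fell 1.23-fold (log2 fold change -0.30, SE 0.064, limma adjusted p = 0.00555). ANLN, the scaffold anillin of the contractile ring, varied much between replicates, with 25665, 21164 and 26988 in CD104high libraries, against 24179.6, 20252 and 27476 in CD104low libraries, and did not pass (log2 fold change 0.041, SE 0.12, limma adjusted p = 0.811). In each population its replicate 2 was the lowest.

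TOP2A and MKI67, both widely used to gauge proliferation, did not follow the majority. TOP2A (ENSG00000131747.15; GRCh38 chromosome 17, 40388516 to 40417950, minus strand), the topoisomerase that disentangles sister chromatids, had 46708, 47785 and 44328 in CD104high libraries, against 35385, 35856 and 38805 in CD104low libraries. All CD104high libraries were above all CD104low ones, a rise of 1.26-fold (log2 fold change 0.34, SE 0.064, limma adjusted p = 0.00365). MKI67 (ENSG00000148773.14; GRCh38 chromosome 10, 128096659 to 128126385, minus strand), which encodes Ki-67, the coat protein of mitotic chromosomes used as a proliferation marker in pathology, had 44084, 40676 and 35136 in CD104high libraries, against 31641, 39245 and 36802 in CD104low libraries. Its populations overlapped, with CD104high replicate 3 below CD104low replicates 2 and 3, and it did not pass (log2 fold change 0.15, SE 0.10, limma adjusted p = 0.263, 95% interval -0.083 to 0.39). Ki-67 mRNA thus did not separate the populations, while MAD2L1, CCNB1 and CDC20 had no overlap between them.

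Of the transcription factors, MYBL2 (ENSG00000101057.16; GRCh38 chromosome 20, 43667019 to 43716496, plus strand), which encodes B-MYB, the partner of the MuvB core in G2, was very even within populations, with 7097, 7310.0 and 7233 in CD104high libraries, against 8930.4, 8987 and 9230.1 in CD104low libraries. It fell 1.25-fold without overlap (log2 fold change -0.33, SE 0.054, limma adjusted p = 0.00190). FOXM1, the factor that takes over at the same promoters before mitosis, had 8259, 7562 and 8385 in CD104high libraries, against 8239.5, 7983 and 8700.0 in CD104low libraries. The FOXM1 libraries overlapped and their difference was within their spread (log2 fold change -0.043, SE 0.066, limma adjusted p = 0.629, 95% interval -0.19 to 0.11).

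Libraries within a population also differed as a set. The 52 genes together took 0.921%, 0.875% and 0.871% of the scaled reads on listed genes in CD104high libraries, against 0.965%, 0.935% and 1.00% in CD104low libraries. These shares did not overlap. CD104high replicate 2 was the lowest of its population in 32 of 52 genes (61.5%), where it was the lowest in 35.2% of all tested genes. CD104low replicate 2 was the lowest in 41 of 52 (78.8%), where it was the lowest in 43.0% of all tested genes. CD104low replicate 3 was the highest in 38, and its share over all tested genes was not taken. Without CD104low replicate 2, 31 of 52 genes fell, where 22.2% of all tested genes did, and the median was -0.33. Without CD104low replicate 1, 21 fell, where 13.9% of all tested genes did.

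Transcript length moved with the fold changes, in these genes and across the table. Over all tested genes the median log2 fold change was -0.14 in the length quintile with the shortest transcripts and 0.17 in the quintile with the longest, and over the mitosis genes in the same quintiles it was -0.54 (11 genes) and -0.039 (7 genes). In the quintiles between them, from short to long, the median of the mitosis genes was -0.30, -0.20 and -0.17, where that of all genes was -0.046, -0.0077 and 0.066. The median of the mitosis genes was thus below that of all genes of like length in each quintile. Across the 52 genes the log2 fold change correlated with log10 length at Pearson's r = 0.43 and Spearman's rho = 0.46, and with GC content at 0.14 and 0.11. Across 14398 tested genes the values were 0.19 and 0.22 for length and 0.19 and 0.19 for GC content. These are descriptions over genes measured in the same libraries, and genes are not independent replicates.

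**Figure D4:**
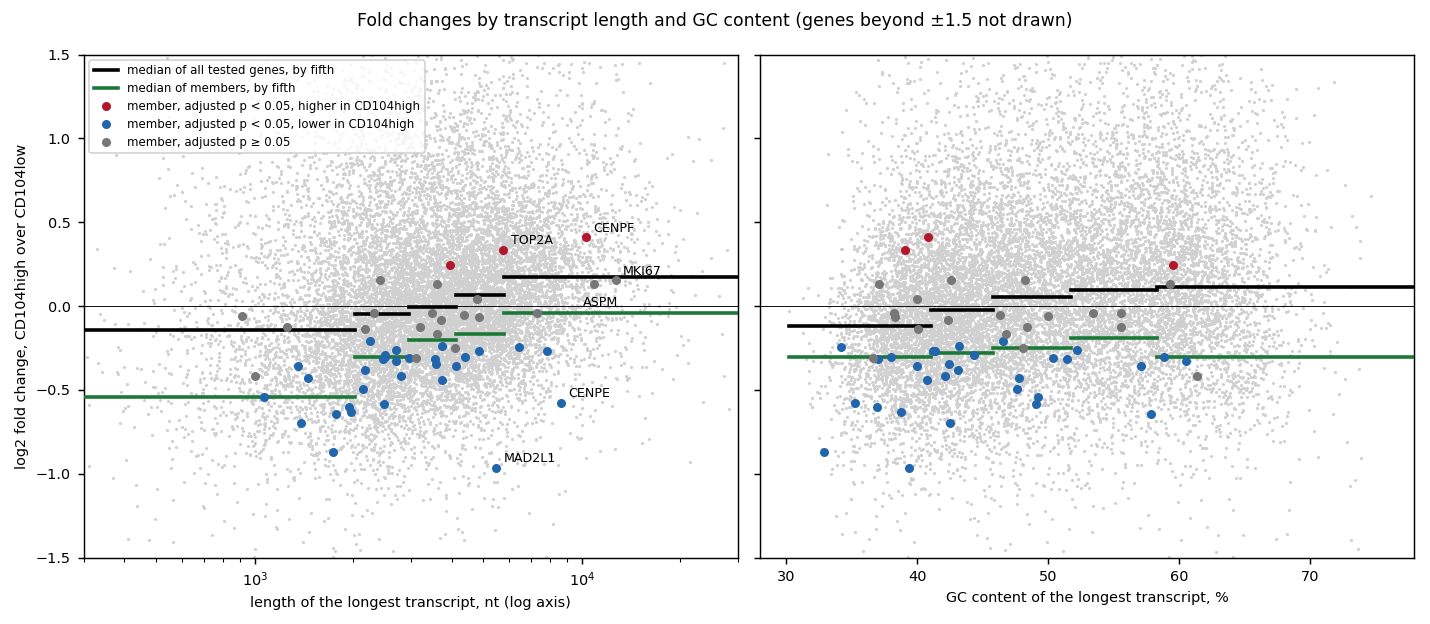
Log2 fold change (y axis, CD104high over CD104low) by length of the longest transcript (left, log axis) and its GC content (right), for all tested genes (light grey) and the 52 mitosis genes (coloured by call), with medians of all genes (black) and of the mitosis genes (green) in quintiles of all genes. Both medians climb with length, and the green line stays below the black one in each quintile.

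Removing the trend with length from each library left 29 mitosis genes lower and 4 higher, where 22.4% of all tested genes were lower and 20.3% higher, with a median of -0.25. Removing trends with length and GC content together left 24 lower and 2 higher, where 21.1% of all tested genes were lower and 19.7% higher, with a median of -0.19. Of the 33 genes that had passed, 25 passed with the same direction after the joint correction, and the share kept among all genes that had passed was not taken. NDC80, KIF11, UBE2C and MKI67, none of which had passed, changed sign. The calls lost were those of CDK1, CENPA, SPC25, AURKA, KIF18A, KIF20B, ECT2 and INCENP, and TPX2 gained one. CENPE and CENPF, with longest transcripts of 8612 and 10307 nucleotides, were the test cases for length. CENPE was lower throughout, at -0.58 uncorrected, -0.76 with the length trend removed (adjusted p = 0.000381) and -0.50 with both removed (adjusted p = 0.000749). CENPF was higher throughout, at 0.41, 0.19 (adjusted p = 0.0307) and 0.31 (adjusted p = 0.00511), so its difference was smallest under the length correction alone.

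Other long genes shifted too. MKI67, at 12678 nucleotides the longest of the group, was at 0.15 uncorrected, -0.11 with the length trend removed and -0.13 with both removed, and it passed in none of these. ASPM, at 10887 nucleotides, was at 0.13, -0.10 and 0.11 and likewise passed in none. TOP2A was higher in all 3, at 0.34, 0.24 and 0.40 (adjusted p = 0.00113 in the last). Among short genes, CENPK moved from -0.87 to -0.74 with the length trend removed and to -0.41 with both removed (adjusted p = 0.0122). In the same settings SPC25 was at -0.19 and -0.051 (adjusted p = 0.672), and CDK1 at -0.50 (adjusted p = 0.0217) and -0.28 (adjusted p = 0.0988). In the quintile of lowest GC content, with 18 mitosis genes, their median was -0.31 uncorrected, -0.30 with the length trend removed and -0.064 with both removed. The median of all genes there was -0.12, -0.18 and 0.0098. MAD2L1 was at -0.89, CDC20 at -0.64 and PLK1 at -0.50 with both trends removed, so these stood near or beyond their uncorrected values. UBE2C, whose longest transcript of 914 nucleotides is the shortest of the group, passed as higher with the length trend removed (0.16, adjusted p = 0.0443) and did not pass with both removed (0.12, adjusted p = 0.107).

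**Figure D5:**
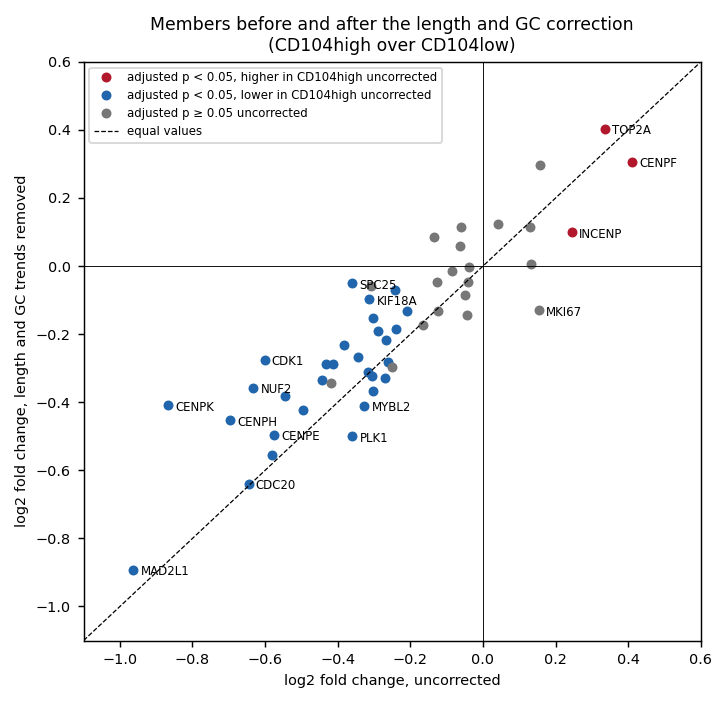
Log2 fold change of the 52 genes before (x axis) and after (y axis) removal of the length and GC trends, coloured by the uncorrected call, with the line of equal values. Most called genes lie nearer to 0 after the correction, MAD2L1, CDC20 and CENPE stay low, and CENPF and TOP2A stay above 0.

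Genes of the same pathway outside the group were also lower more often than higher. Of 116 other mitosis genes in 7 lists, all tested, 54 fell and 4 rose, with a median of -0.20. With the trends with length and GC content removed, 46 were lower and 5 higher, with a median of -0.15. In that setting 21.1% of all tested genes were lower and 19.7% higher. The counts per list below are uncorrected. Over all 14420 tested genes 21.6% fell, 21.8% rose and 6968 were below 0, and each list here is set beside these shares. All 15 further mitotic entry and exit genes were below 0 and 10 fell, among them CDC25A, the phosphatase of the G1 to S and G2 to M transitions, with 2019, 1903 and 2039.9 in CD104high libraries, against 3648, 3032 and 3579 in CD104low libraries (log2 fold change -0.78, SE 0.086, limma adjusted p = 0.000430), and NEK2, a centrosome kinase (log2 fold change -0.46, SE 0.072, limma adjusted p = 0.00160). Of 24 further centromere and kinetochore genes 13 fell and none rose, including SKA2 (-0.53) and SKA3 (-0.42), parts of the complex that couples kinetochores to microtubules. Of 9 further checkpoint genes 6 fell, among them SGO2 (-0.66), a protector of centromeric cohesion, and ZWINT (-0.31), a kinetochore linker.

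The anaphase-promoting complex with separase and its helpers had 9 of 18 lower, where 21.6% of all tested genes were lower. UBE2S, the enzyme that extends ubiquitin chains after UBE2C has begun them, had 22065, 25511 and 33199.8 in CD104high libraries, against 61615, 49799.6 and 58098 in CD104low libraries, a fall of 2.12-fold without overlap (log2 fold change -1.08, SE 0.14, limma adjusted p = 0.000769), where UBE2C did not pass. In condensin and cohesin 7 of 19 fell, among them NCAPG, a condensin I subunit (log2 fold change -0.58, SE 0.068, limma adjusted p = 0.000500). The 4 rises lay in further spindle and centrosome genes, which had 7 of 23 and 2 of 8 lower. The shares over all tested genes were 21.6% lower and 21.8% higher. They were NUMA1, which anchors spindle poles to the cortex (log2 fold change 0.61, SE 0.091, limma adjusted p = 0.00128), PCNT (0.54) and CDK5RAP2 (0.36), scaffolds of the centrosome, and CIT, the citron kinase of cytokinesis (0.44). With both trends removed these were 0.33 for NUMA1, 0.21 for PCNT, 0.25 for CDK5RAP2 and 0.19 for CIT, the last with an adjusted p of 0.0563.

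Among regulators of these promoters, the DREAM and MuvB list had 6 of 11 lower and 2 higher. The shares over all tested genes were 21.6% lower and 21.8% higher. RBL2, the p130 protein of the repressor DREAM complex, had 1806, 1732 and 1662 in CD104high libraries, against 1179, 1178 and 1098 in CD104low libraries and rose 1.5-fold (log2 fold change 0.59, SE 0.077, limma adjusted p = 0.000739). E2F4, the E2F of that complex, fell 1.49-fold, with 5439, 5483 and 4871 in CD104high libraries, against 8154, 7618 and 7786 in CD104low libraries (log2 fold change -0.58, SE 0.068, limma adjusted p = 0.000507), and E2F5 fell too (log2 fold change -0.66, SE 0.12, limma adjusted p = 0.00301). TFDP2, a dimer partner of E2F proteins, rose (0.27) and was at 0.055 with both trends removed (adjusted p = 0.510). In a list of 7 other E2F factors and RB1, E2F3 (-0.32) and E2F6 (-0.36) fell, where 21.6% of all tested genes did, and the others did not pass.

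Of 5 tested CDK inhibitors 2 rose, where 21.8% of all tested genes did. CDKN1A, which encodes p21, an inhibitor of cyclin-dependent kinases induced by p53 and by other routes, had 5076, 4308 and 5655 in CD104high libraries, against 2133, 2256 and 1911 in CD104low libraries. Every CD104high library was above every CD104low one and the rise was 2.38-fold (log2 fold change 1.25, SE 0.11, limma adjusted p = 0.000235). CDKN1C, which encodes p57, had 295, 383 and 414 in CD104high libraries, against 195, 247 and 179.7 in CD104low libraries and rose 1.75-fold (log2 fold change 0.81, SE 0.18, limma adjusted p = 0.00725). Of 26 S phase genes 17 fell and none rose, where 21.6% of all tested genes fell and 21.8% rose. Their median was -0.31, beside -0.28 for the mitosis genes. With the trends with length and GC content removed, the medians were -0.32 and -0.19. Of the 26 S phase genes 16 were then lower, where 21.1% of all tested genes were. CCNE2, the cyclin of S phase entry, had 1423, 1457 and 1396 in CD104high libraries, against 2646, 2028 and 2557 in CD104low libraries (log2 fold change -0.75, SE 0.10, limma adjusted p = 0.000996). Of 11 genes for tubulins and stathmin 5 fell, where 21.6% of all tested genes did. TUBA1B (-0.43) and TUBA1C (-0.41) had the smallest adjusted p of them, though tubulin genes are near-identical and their reads may be divided between copies.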

How the data were processed

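RNA from 6 samples was measured. Per the submitters' processing notes, FastQC, Salmon 1.3.0 and DESeq2 were used with GRCh38 (hg38). Annotation, filters and strand setting were not given in the sources used here. Per its file headers, the deposited table holds a scaled read count signal per library and the authors' own log2 fold change, standard error, p-value and adjusted p-value per gene. Within each library 100% of values were whole multiples of 1 step (within 0.01), which gave recovered reads for edgeR 4.0.16 and DESeq2 1.42.0, used as alternatives. For CD104low replicates 1 and 2 the step lay too near 1 for an automatic check.

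Differences were tested with limma 3.58.1 (intensity trend, R 4.3.3) on log2(value + 1), which understates changes of low genes, over 14420 genes that reached a value of 10 in 3 or more samples, with Benjamini-Hochberg adjustment over all of them and a threshold of 0.05. It was tested on simulated data. Lengths, GC content and overlaps came from GENCODE 29, by gene identifier for 14994 genes, from the longest transcript. The corrections subtracted a lowess trend (span 0.5) per library and kept library means. Promoters came from RefSeq. Text names every member, and for other lists up to the 2 smallest p in each direction. Members and lists were chosen with earlier results of these data known. Each library held 49791498 to 60069719 recovered reads. The 95% intervals are confidence intervals of the mean difference between the populations, from limma's moderated standard error over these samples.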

Additional observations from a re-analysis of the deposited data

How the results depend on the processing

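Of the 33 genes that passed, 22 passed in the same direction in all 18 settings tried (20 lower, with CENPF and TOP2A higher), and none changed sign in any. The share kept among all genes that passed was not taken, so whether these calls are more stable than others is not known. The others, BUB1B, CDCA8, CDK1, AURKA, BIRC5, CENPA, SPC25, ECT2, KIF18A, KIF20B and INCENP, lost the call in at least 1 setting. Genes called lower numbered 29 to 32 under other scalings, filters, pseudocount, edgeR, DESeq2, the authors' deposited table and the length correction, where 20.7% to 25.0% of all tested genes were lower. They numbered 24 without the intensity trend (18.7% of all) and 24 with length and GC content removed (21.1% of all), which moved the median to -0.19. Leaving out 1 library gave 21 to 31 lower, where 13.9% to 22.2% of all tested genes were lower. It gave 2 to 3 higher and a median of -0.33 to -0.25, and the share of all tested genes higher in these fits was not taken. Same-numbered libraries of the populations correlated at 0.084, 0.36 and 0.32 in their deviations from population means, and 2 of 3 exceeded 0.1. In 6 of 6 libraries the best correlation was with their own number. The labels state no pairing, so the main test used none, and these values do not settle whether the numbers pair the samples. The replicate block gave 32 lower (26.6% of all) and 3 higher, and changed no call but those of CENPM and TPX2, which were called lower.

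Genes that had not passed changed sign as follows, and the cause was not tested. Under the length correction ANLN was at -0.017, ASPM at -0.10, AURKB at 0.052, MKI67 at -0.11, SPC24 at 0.031 and UBE2C at 0.16. With length and GC content removed KIF11 was at 0.060, MKI67 at -0.13, NDC80 at 0.086 and UBE2C at 0.12. Under quantile normalization KIF14 was at 0.0046 and NUSAP1 at -0.15. Leaving out 1 library gave ANLN -0.075 to 0.15, FOXM1 -0.071 to 0.0034, HMMR -0.69 to 0.089, KIF14 -0.066 to 0.0095, KIF4A -0.17 to 0.099, NUSAP1 -0.18 to 0.52 and SPC24 -0.13 to 0.0081. The stricter filter (a value of 50) removed NUSAP1.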

Other observations

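Log2 ratios within a library were taken for 8 pairs of genes, partners in a complex or of related role. The pairs were chosen after their values were seen, so the ratios are a description. NUF2 over NDC80 was -0.13, 0.025 and 0.018 in CD104high libraries, against 0.55, 0.33 and 0.52 in CD104low libraries. SPC25 over SPC24 was -0.41, -0.47 and -0.34 in CD104high, against -0.11, -0.15 and -0.0080 in CD104low. CDCA8 over INCENP was -0.74, -0.87 and -0.60 in CD104high, against -0.090, -0.36 and -0.085 in CD104low. In all 3 pairs the populations were separate.

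CENPE over CENPF differed most between the populations, by -0.99, with mean ± SD of -1.92 ± 0.074 over the 3 CD104high and -0.93 ± 0.23 over the 3 CD104low libraries. MAD2L1 over BUB1 differed by -0.62, CDC20 over UBE2C by -0.59, CCNB1 over CDC25B by -0.52 and MYBL2 over FOXM1 by -0.28. Each of the 8 uncorrected ratios had separate populations. With the trends with length and GC content removed, the difference for SPC25 over SPC24 was -0.0045, where it was -0.32 uncorrected, and that for CCNB1 over CDC25B was -0.24. The other 6 differences kept their sign and moved by less than 1.5 times, to -0.44 for NUF2 over NDC80, -0.41 for CDCA8 over INCENP, -0.80 for CENPE over CENPF, -0.62 for MAD2L1 over BUB1, -0.75 for CDC20 over UBE2C and -0.27 for MYBL2 over FOXM1.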
